A study of Mus musculus with 16 samples.

Results

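The endoplasmic reticulum (ER) folds secreted and membrane proteins, and the unfolded protein response is the program a cell switches on when unfolded protein builds up there. Of the 23179 genes in the table, 10 genes of this response were followed in mammary adipose tissue. They were taken by name, as sensors (Atf6, Ern1), transcription factors (Atf4, Xbp1, Ddit3), chaperones (Hspa5, Hsp90b1, Dnajb9), a protein of ER-associated degradation (Herpud1) and a pseudokinase (Trib3). The rule uses no measured value, although the set was chosen with earlier results of these data known, and all 10 passed the filter on low values.

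In the resting state the chaperone BiP, the product of Hspa5, is bound to sensors in the ER membrane, namely IRE1α (Ern1), ATF6 and PERK (Eif2ak3). On stress, IRE1α splices Xbp1 mRNA, ATF6 is cut and moves to the nucleus, and PERK phosphorylates eIF2α, which favors translation of ATF4. The resulting factors raise chaperone and degradation genes, and the ATF4 arm also raises Ddit3 (CHOP) and its target Trib3, which are linked to growth arrest and cell death. Splicing of Xbp1, cleavage of ATF6 and phosphorylation were not measured here, so gene-level values of Xbp1, Atf6 and Ern1 do not show whether the proteins were active. Adipocytes and secretory epithelium make much secreted protein and lipid, and ER stress in adipose tissue is a known companion of obesity.

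RNA-Seq was run on 16 libraries of mammary fat from female wild-type C57BL/6NCrl mice, 4 libraries per group. Lean controls (CON-LFD) were kept on a low-fat diet with 10% of energy as fat and had a sham operation. Obesity was induced in the other groups with a diet of 60% fat, on which mice bought at 8 weeks of age were kept for 15 weeks, and they then stayed on it after a sham operation (DIO-HFD), changed to the low-fat diet after a sham operation (DIO-LFD), or had vertical sleeve gastrectomy, which removes most of the stomach, together with the low-fat diet (DIO-VSG). Every mouse, controls included, was injected with cells of the E0771 mammary tumor line in a fat pad 7 weeks after surgery, and 4 weeks later the fat pad of the opposite side was taken, so that no group was free of tumor or surgery and DIO-VSG combined an operation with a diet. Only DIO-HFD mice still ate the high-fat diet when tissue was taken, so body weight and current diet cannot be told apart in comparisons with that group. Each library carried its own animal number, and pooling of mice was not described. The labels also list E0771 as cell line, although the tissue is the pad without the injected tumor.

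Libraries held 46907377 to 57610899 reads, and the lowest value of a member was 328 reads, for Trib3. Lymphoid tissue set several libraries apart. The summed normalized read count of 10 B cell markers ran from 341 to 79700 in CON-LFD and from 1150 to 106000 in DIO-HFD, against 18900 to 43100 in DIO-LFD and 71900 to 83600 in DIO-VSG. CON-LFD replicates 2 and 4 and DIO-HFD replicates 2 and 3 formed a low cluster, and removal of the lymph node in the pad was not described. Of the 10 adipocyte markers, which define the labelled tissue, 0 were at or below 3 reads throughout a group, and their sum lay between 476000 (DIO-HFD replicate 1) and 1700000. In bulk tissue fewer cells of a type and less RNA per cell cannot be told apart.

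Of these genes 3, Hspa5, Hsp90b1 and Herpud1, carry within the 250 bases before their start letters that factors of this response are known to read. The stretches that hold these letters are shown, and no searched element was found in all 3. Sequences are from RefSeq on GRCm38.p6, 5′ to 3′ on the strand of the gene, with the letters searched for in capitals. The ER stress response element (ERSE, CCAAT and CCACG separated by 9 bases) stands on the gene's strand in Hspa5 at chr2:34772020-34772049 and at the first capitals of Hsp90b1 at chr10:86705525-86705674, where a further copy lies on the opposite strand. Herpud1, at chr8:94386299-94386398, carries the amino acid response element TGATGCAA (CARE) on the opposite strand and then the second form of the element (ERSE-II, ATTGG and CCACG separated by 1 base).
Hspa5: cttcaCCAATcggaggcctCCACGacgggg
Hsp90b1: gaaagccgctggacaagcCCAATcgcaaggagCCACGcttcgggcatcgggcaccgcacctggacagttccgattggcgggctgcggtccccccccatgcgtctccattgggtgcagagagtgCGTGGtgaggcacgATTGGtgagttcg
Herpud1: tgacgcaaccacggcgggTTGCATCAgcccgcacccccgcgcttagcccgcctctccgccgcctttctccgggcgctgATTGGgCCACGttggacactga

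Searched on both strands, with exact letters, ERSE stood in 37 of 32851 promoters of the same length (0.113%), ERSE-II in 10 (0.0304%), CARE in 260 (0.791%) and the XBP1-type element TGACGTGG in 185 (0.563%). Promoters of 9 members were in the table, and Atf6 was the member without an entry. The other 6 held none of these letters in this window. In Hspa5 the ERSE ran from 65 to 47 bases before the start, inside the span that GENCODE gives the gene. Hsp90b1 held copies at 212 to 194 and at 107 to 89 bases before its start, and Herpud1 held CARE at 112 to 105 and ERSE-II at 52 to 42. A match of letters is a description and not evidence of a bound site. No match overlapped another in these promoters.

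Of the 35 genes with ERSE letters, 8 besides these members were in the lists of ER chaperones and foldases or of ER-associated degradation and translocation. They are printed on the strand that reads CCAAT first, with coordinates on GRCm38.p6, since the same spaced letters recur while the bases between them differ. Calr and Canx encode lectin chaperones, Creld2, Ero1lb and Pdia6 act in disulfide formation, Dnajc3 is a co-chaperone, and Derl3 and Syvn1 belong to the degradation machinery.
Calr, chr8:84847075-84847093: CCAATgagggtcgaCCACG
Canx, chr11:50325800-50325818: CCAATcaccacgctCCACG
Creld2, chr15:88819520-88819538: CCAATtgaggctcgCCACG
Derl3, chr10:75893242-75893260: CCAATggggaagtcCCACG
Dnajc3, chr14:118937827-118937845: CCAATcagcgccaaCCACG
Ero1lb, chr13:12565682-12565700: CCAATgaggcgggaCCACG
Pdia6, chr12:17266491-17266509: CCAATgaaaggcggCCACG
Syvn1, chr19:6046532-6046550: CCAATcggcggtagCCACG

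Levels of the members differed more between genes than between groups. Per kilobase of merged coding-transcript exons, the mean normalized read count over 16 libraries was highest for Hsp90b1 at 8427 ± 1070 (SD), followed by Hspa5 at 4849 ± 953, Xbp1 at 3642 ± 1359, Atf4 at 3159 ± 383 and Herpud1 at 2193 ± 469. Ddit3 at 897 ± 92.6, Dnajb9 at 863 ± 132, Atf6 at 541 ± 57.9, Ern1 at 342 ± 105 and Trib3 at 267 ± 113 came below. The ranges of neighbors in this order overlapped except between Herpud1 and Ddit3 and between Dnajb9 and Atf6, and Ddit3 lay above Dnajb9 in 9 of 16 libraries. The widest spread belonged to Trib3, whose highest library stood 3.49-fold above the lowest, then Xbp1 at 3.38-fold and Ern1 at 2.75-fold, while Ddit3 spanned 1.42-fold. Within groups, 7 of 10 members varied less than the median tested gene (SD 0.36 on the log2 scale), the exceptions being Trib3 (0.52), Xbp1 (0.364) and Ern1 (0.363). Against the 12580 tested genes with a mean normalized count between 270.9 and 47620, a wide band around the members' levels, whose median was 0.24, 6 of 10 varied less.

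**Figure D1:**
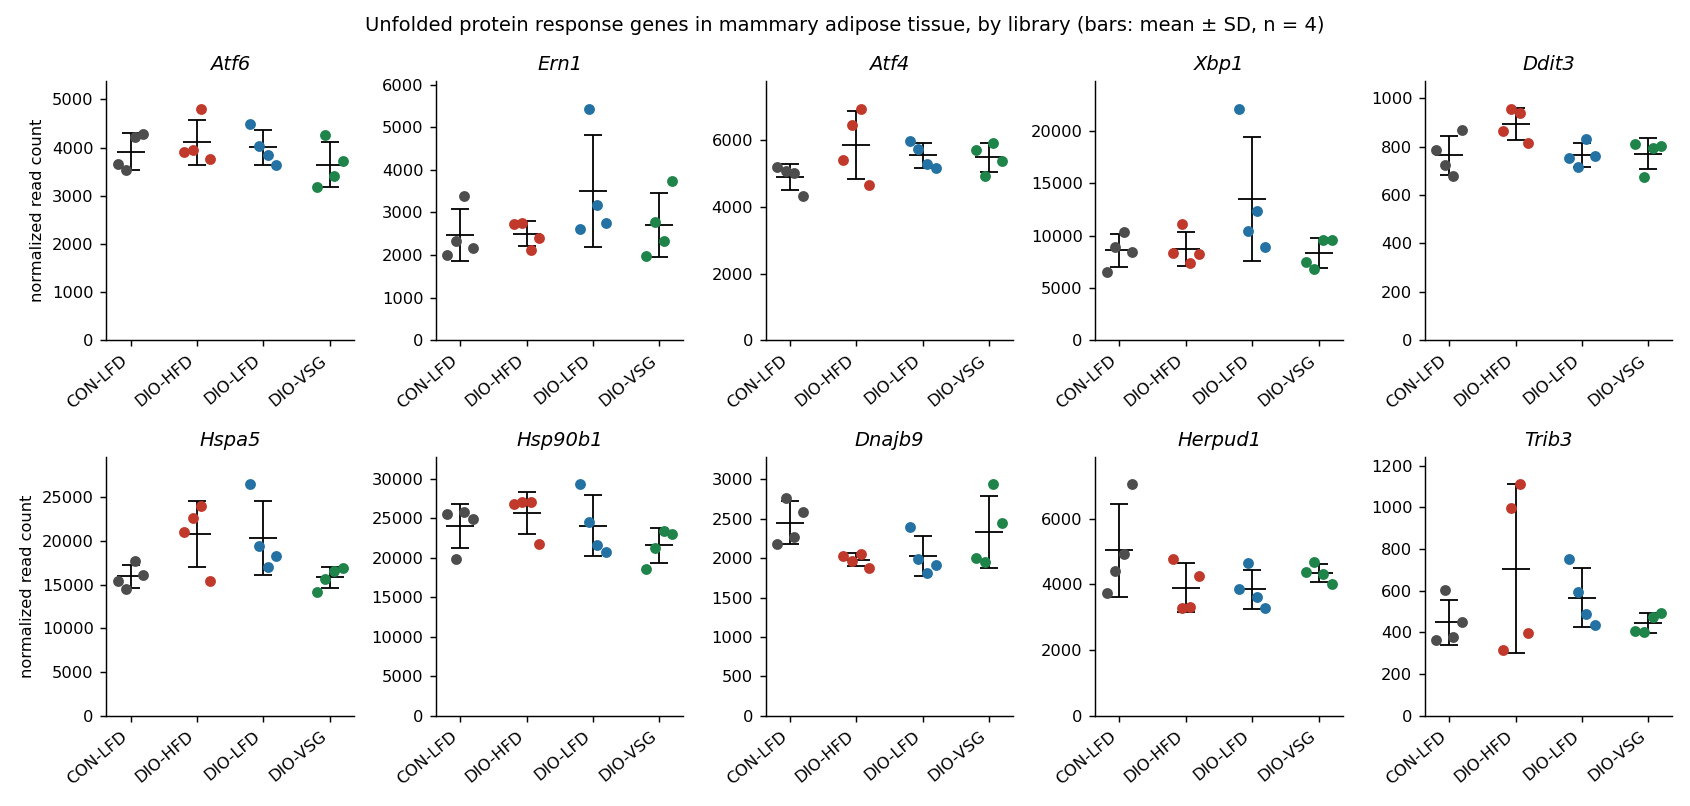
Normalized read counts (vertical axis, starting at 0) of the 10 genes in each of the 16 libraries, by group, with points for libraries and bars for the mean ± SD (n = 4). Hspa5 is high in 3 of 4 DIO-HFD libraries and in DIO-LFD replicate 1, and Trib3 in DIO-HFD replicates 2 and 3.

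Persistent obesity against leanness, in DIO-HFD and CON-LFD, did not move all members the same way, with 8 of 10 higher and 2 lower. Hspa5 was 1.29-fold and Ddit3 1.17-fold as high in DIO-HFD, Dnajb9 was 0.812-fold, and none of the members passed the adjusted threshold of 0.05. By limma on log2(normalized count + 1), with Benjamini-Hochberg adjustment over 21218 genes, 8 genes (0.0377%) were called in this comparison and 0 of 10 members. At an unadjusted P below 0.05 there were 2 members higher and 1 lower, against 2735 genes in all (12.9%), and limma-voom on recovered reads called 0 members and 0 genes. The members' median log2 change was 0.08, beside 0.02 over all genes, and 8 of 10 were above 0. The median ran from 0.038 (without CON-LFD replicate 2) to 0.15 (without CON-LFD replicate 3), and was -0.024 in the 12 libraries with the higher B cell scores. All 10 B cell markers (median 1.16) and all 10 T cell markers (0.66) were higher in DIO-HFD, and all 10 luminal markers (-0.80, 6 of them at an unadjusted P below 0.05) and all 8 skeletal muscle markers (-2.42) lower, as were 9 of 10 adipocyte markers (-0.53). None of these was called, and their part in the members' values was not tested.

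Hspa5 was at 15407, 14520, 17699 and 16113 normalized read counts in CON-LFD and at 21065, 22589, 23972 and 15458 in DIO-HFD. The first 3 DIO-HFD replicates lay above all control libraries, while the fourth lay among them. The log2 change was 0.37 ± 0.15 (SE; 95% confidence interval 0.04 to 0.69, unadjusted P = 0.0291, adjusted P = 0.33 by limma), and the exact two-sided permutation P was 0.0857, where 0.0286 is the smallest that 4 against 4 libraries allow. Without DIO-HFD replicate 4 the change was 0.50, and with libraries weighted by their estimated precision, which favored that replicate, it was 0.037. That replicate had the highest keratinocyte marker score of the 16 libraries, 3.70, and a B cell score of 1.69, and the part of either in its Hspa5 value was not tested. Among the 12 libraries with the higher B cell scores, an alternative chosen after seeing the data, which leave 2 libraries in each of these groups, the change was 0.13.

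Ddit3 encodes CHOP, the factor at the end of the ATF4 arm. Its values were 785, 723, 679 and 868 in CON-LFD and 864, 956, 941 and 815 in DIO-HFD, so that DIO-HFD replicates 2 and 3 stood above all controls and the others overlapped with them. The log2 change was 0.23 ± 0.10 (adjusted P = 0.35 by limma, exact permutation P = 0.0857), and 0.086 with library weights. In the annotation Ddit3 overlaps Mars and Gm4189 on the other strand, the symbol has 2 overlapping records, and whether the counting used strand was not given in the sources used here, so its reads may hold some of those genes.

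Dnajb9 (ERdj4), a co-chaperone of BiP, went the other way. It was at 2181, 2758, 2274 and 2588 in CON-LFD and at 2034, 1971, 2051 and 1871 in DIO-HFD, and every DIO-HFD library lay below every control. The log2 change was -0.30 ± 0.13 (adjusted P = 0.35 by limma), and the exact permutation P reached its smallest possible value, 0.0286. This permutation P is unadjusted, and the share of all genes without overlap was not counted. With scaling to total reads the change of Dnajb9 was -0.16, and in the 12 libraries with the higher B cell scores it was -0.19. Herpud1, which helps assemble the degradation complex, was lower on average at 3899 ± 740 against 5032 ± 1422 (SD, n = 4). Its control values spread from 3751 to 7040, and the difference (-0.35 ± 0.18, adjusted P = 0.43) was within that spread and was -0.17 without CON-LFD replicate 4.

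Among the other factors and sensors Atf4 had the largest difference. This factor, whose translation PERK controls, was at 5196, 5087, 5003 and 4338 in CON-LFD and at 5404, 6450, 6944 and 4661 in DIO-HFD, which gave a log2 change of 0.24 ± 0.12 (adjusted P = 0.40 by limma), 0.16 without DIO-HFD replicate 3 and -0.072 with library weights. Here too 3 of 4 DIO-HFD libraries exceeded all controls and replicate 4 did not. Changes of Atf6 (0.07 ± 0.11), Ern1 (0.04 ± 0.24), Xbp1 (0.03 ± 0.24) and Hsp90b1 (0.10 ± 0.13) were smaller than their SE, with 95% intervals of -0.17 to 0.31, -0.48 to 0.56, -0.49 to 0.55 and -0.19 to 0.38. Hsp90b1 encodes GRP94, the ER member of the HSP90 family, and 3 of its 4 DIO-HFD values (26828, 27023 and 27007) were close together above the controls (19838 to 25731), with replicate 4 at 21698. Its change was 0.0079 without CON-LFD replicate 2, 0.18 without DIO-HFD replicate 4 and -0.15 with library weights.

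Trib3, the pseudokinase induced by CHOP and ATF4, was the most uneven member. It was at 362, 602, 380 and 449 in CON-LFD and at 318, 999, 1110 and 400 in DIO-HFD. The DIO-HFD group thus held the highest libraries and the lowest library of the series, and its log2 change of 0.48 ± 0.35 was not called (adjusted P = 0.60 by limma). Leaving out DIO-HFD replicate 3 gave 0.20, and leaving out DIO-HFD replicate 1 gave 0.79. With the adipocyte score as a covariate it was 0.82. The high libraries, DIO-HFD replicates 2 and 3, were those of the low B cell cluster, with B cell scores of -2.48 and -4.49, and the low ones had scores of 2.38 and 1.69. Among the 12 libraries with the higher B cell scores the log2 change of Trib3 was -0.06. In that set Atf4 (-0.02), Hsp90b1 (-0.09), Atf6 (-0.03), Ern1 (-0.03) and Herpud1 (0.07) also lay on the other side of 0 from their values over all libraries, with adjusted P from 0.89 to 0.99 by limma.

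**Figure D2:**
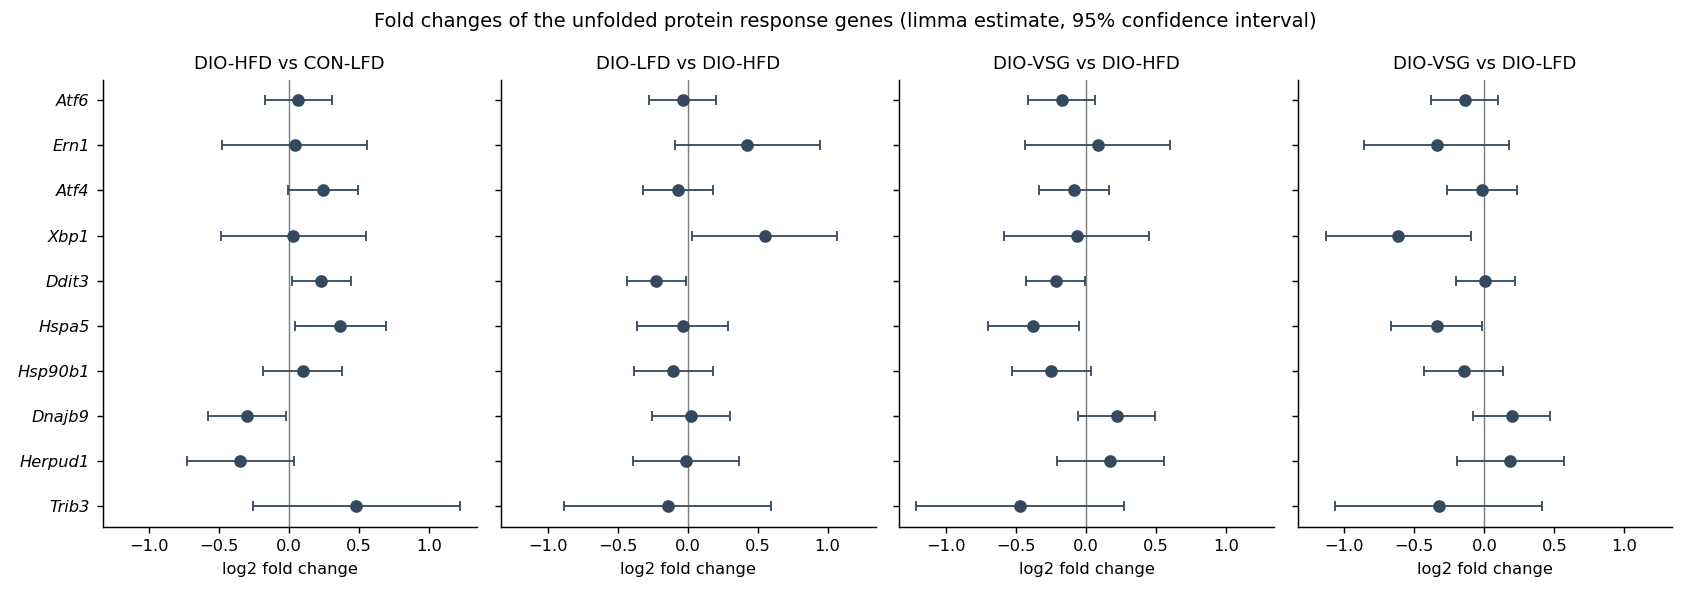
Log2 fold changes (horizontal axis) of the 10 genes in 4 comparisons, as limma estimates with 95% confidence intervals. Intervals that exclude 0 belong to Hspa5, Ddit3, Dnajb9 and Xbp1, and none of these changes passed the adjusted threshold.

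Weight loss by diet was asked of DIO-LFD against DIO-HFD, a comparison that uses the same DIO-HFD libraries as the one above and as the surgical one below. Xbp1 was 1.46-fold as high and Ddit3 0.857-fold as high in DIO-LFD, and Hspa5 was 0.976-fold as high. Of the 10 members 0 were called, beside 0% of all genes. At an unadjusted P below 0.05 there were 1 higher and 1 lower, beside 1809 genes or 8.53%, and limma-voom called 0 of either. Over the members the median log2 change was -0.03, beside 0.01 over all genes. It had no stable sign, at -0.12 without DIO-HFD replicate 4, 0.041 without DIO-HFD replicate 3 and 0.10 in the 12 libraries with the higher B cell scores.

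Xbp1, the factor downstream of IRE1α and a gene that secretory cells need, was at 22132, 10472, 12400 and 8927 in DIO-LFD. Elsewhere it ran from 7354 to 11100 in DIO-HFD, from 6556 to 10364 in CON-LFD and from 6817 to 9582 in DIO-VSG. DIO-LFD replicate 1 stood far above every other library, and DIO-LFD replicate 3 was also above all of DIO-HFD. The log2 change against DIO-HFD was 0.55 ± 0.24 (adjusted P = 0.55 by limma, exact permutation P = 0.0857), and without that library it was 0.28. In this library the plasma cell score was -0.25, the mammary luminal score -0.17 and the fibroblast score -2.22, the lowest of the 16, and their part was not tested. Summed luminal markers ran from 56200 to 136000 in DIO-LFD and from 31400 to 68900 in DIO-HFD, with all 10 markers higher in DIO-LFD, 7 of them at an unadjusted P below 0.05 and 0 called. In the same comparison all 10 B cell (median 1.54), 9 of 10 T cell (0.72), 9 of 10 adipocyte (0.40) and all 8 skeletal muscle markers (2.25) were higher and all 8 fibroblast markers (-0.60) lower, with 0 called, and their part was not tested.

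Ddit3 was at 752, 717, 833 and 760 in DIO-LFD, and only the library at 833 reached into the DIO-HFD range. Its log2 change was -0.22 ± 0.10 (adjusted P = 0.56 by limma, exact permutation P = 0.0571), and -0.086 with library weights. Hspa5 ranged from 17010 to 26442, with replicate 1 the highest of the series, and differed from DIO-HFD by -0.04 ± 0.15 with an interval of -0.36 to 0.29. For Ern1 the values were 2619, 5433, 3165 and 2748, again with 1 library far above the others, and a log2 change of 0.43 ± 0.24 (adjusted P = 0.70) that was 0.19 without DIO-LFD replicate 2. The changes of Atf6 (-0.03), Atf4 (-0.07), Hsp90b1 (-0.10), Dnajb9 (0.03), Herpud1 (-0.01) and Trib3 (-0.14) had adjusted P values from 0.93 to 0.99. That of Hsp90b1 ran from -0.20 (without DIO-LFD replicate 1) to -0.034 (without DIO-LFD replicate 4), and that of Trib3 was -0.41 with the adipocyte score as a covariate and 0.64 in the 12 libraries with the higher B cell scores. Trib3 in DIO-LFD lay at 754, 595, 487 and 434, between the separated DIO-HFD values.

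Sleeve gastrectomy with the low-fat diet was set against persistent obesity in DIO-VSG and DIO-HFD. Hspa5 was 0.771-fold and Ddit3 0.861-fold as high in DIO-VSG, 7 of 10 members were lower, and the median log2 change was -0.13 beside 0.02 over all genes (-0.20 to -0.094 with a library left out, and -0.028 in the 12 libraries with the higher B cell scores), and turned to 0.033 with library weights. Here again 0 members and 0% of all genes were called. At an unadjusted P below 0.05 there were 0 members higher and 2 lower, beside 2794 genes or 13.2%, with 0 members and 0 genes called by limma-voom. All 10 B cell markers (median log2 change 2.78) and all 10 T cell markers (2.14) were higher and all 8 keratinocyte markers (-1.52) and all 8 fibroblast markers (-0.83) lower in DIO-VSG. All 6 endothelium markers (-0.41, 3 of them at an unadjusted P below 0.05) and 7 of 8 macrophage markers (-0.72) were lower too. All 10 luminal markers (0.34, 2 of them at an unadjusted P below 0.05) and 7 of 8 skeletal muscle markers (1.94) were higher. None was called, and their part in the members' values was not tested.

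Hspa5 was at 14182, 15688, 16508 and 16917 in DIO-VSG, a narrow range that took in DIO-HFD replicate 4 and lay below the other DIO-HFD libraries. Its log2 change was -0.38 ± 0.15 (interval -0.70 to -0.05, adjusted P = 0.33 by limma, exact permutation P = 0.114). When the fit weighted each library by its estimated precision, which gave DIO-HFD replicate 4 a weight of 10.9 against 0.22 to 0.48 for the other DIO-HFD libraries, the change of Hspa5 was -0.01. Ddit3 was at 809, 674, 793 and 803, and every DIO-VSG value was below every DIO-HFD value. The change was -0.22 ± 0.10 (adjusted P = 0.37 by limma), with the smallest exact permutation P, 0.0286, and -0.084 with library weights. Here too the share of all genes without overlap was not counted.

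Hsp90b1 was at 18583, 21261, 23402 and 23041 in DIO-VSG and a log2 change of -0.25 ± 0.13 (adjusted P = 0.40 by limma), which was -0.034 with library weights. Dnajb9 was split, with replicates 1 and 2 at 2008 and 1952 inside the DIO-HFD range and replicates 3 and 4 at 2935 and 2453 above it. Its change was 0.22 ± 0.13 (adjusted P = 0.42 by limma), and 0.10 without DIO-VSG replicate 3. With library weights it was the only member called in any alternative, at 0.33 with an adjusted P of 0.0326, in a fit that called 3739 of all 21218 genes, so that 1 of 10 members was not above the share of all genes. Trib3 was at 407, 400, 474 and 496, and its change of -0.47 ± 0.35 (adjusted P = 0.50) was 0.31 among the 12 libraries with the higher B cell scores, a set without DIO-HFD replicates 2 and 3. Leaving out DIO-HFD replicate 3 alone gave -0.19, and leaving out DIO-HFD replicate 1 gave -0.79. Changes of Atf6 (-0.17 ± 0.11), Atf4 (-0.08 ± 0.12), Xbp1 (-0.07 ± 0.24), Ern1 (0.08 ± 0.24) and Herpud1 (0.17 ± 0.18) had adjusted P values from 0.45 to 0.90. With a library left out, Atf6 ranged to -0.096 (without DIO-HFD replicate 3) and Herpud1 from 0.094 (without DIO-HFD replicate 2) to 0.28 (without DIO-HFD replicate 1).

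The weight-loss groups, which share the low-fat diet, were also compared directly. In DIO-VSG relative to DIO-LFD, Xbp1 was 0.653-fold and Hspa5 0.790-fold as high, while Ddit3 was level (1.00-fold, log2 change 0.01, interval -0.21 to 0.22). The count of members called was 0, beside 0% of genes, and 0 members and 0 genes passed with limma-voom. At an unadjusted P below 0.05 there were 2 members, both lower, beside 2061 genes or 9.71%. Every DIO-VSG value of Hspa5 lay below every DIO-LFD value, although DIO-VSG replicate 4 (16917) and DIO-LFD replicate 3 (17010) were nearly equal. How many of all genes separated in this way was not counted. The log2 change of Hspa5 was -0.34 ± 0.15 (adjusted P = 0.51 by limma, exact permutation P = 0.0286) and was -0.21 without DIO-LFD replicate 1. For Xbp1 the change was -0.62 ± 0.24 (adjusted P = 0.51 by limma), and -0.35 without that library. The members' median was -0.14, beside -0.02 over all genes. It was -0.065 without DIO-LFD replicate 1 and -0.032 with the adipocyte score as a covariate. All 10 B cell (median 1.22) and all 10 T cell markers (1.45) were higher in DIO-VSG, and all 10 adipocyte (-0.42), all 6 endothelium (-0.43) and 9 of 10 luminal markers (-0.41) lower, with 0 called, and their part in the values of Xbp1 and Hspa5 was not tested.

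Both weight-loss groups were also set against the lean controls, without limma-voom, and the test of the difference between them is the direct comparison above. In DIO-LFD relative to CON-LFD, Hspa5 was higher by 0.33 ± 0.15 and Xbp1 by 0.58 ± 0.24 on the log2 scale, with adjusted P values of 0.79 and 0.75 by limma. There 0 members were called beside 1 gene in all (0.00471%), and 2 members beside 1328 genes (6.26%) had an unadjusted P below 0.05. In DIO-VSG relative to CON-LFD, Hspa5 differed by -0.01 (interval -0.33 to 0.31) and Ddit3 by 0.01 (-0.20 to 0.23). That comparison called 0 members beside 0% of genes, and had 0 members beside 3771 genes (17.8%) at an unadjusted P below 0.05. All 10 B cell markers (median 3.95, 10 at an unadjusted P below 0.05) and all 10 T cell markers (2.71, 9 so) were higher and all 10 adipocyte markers (-0.53) lower in DIO-VSG. In DIO-LFD all 10 B cell (2.73) and all 10 T cell markers (1.23) were higher than in CON-LFD. None was called, and their part was not tested.

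The members were then set among further genes of the pathway, given as counts and medians. Of 22 ER chaperones and foldases, 16 were higher in DIO-HFD than in CON-LFD (median log2 change 0.16), 18 were lower in DIO-VSG than in DIO-HFD (median -0.16) and 14 were lower in DIO-LFD than in DIO-HFD (median -0.02), beside 0.02, 0.02 and 0.01 over all genes. None was called in these comparisons by limma, and at an unadjusted P below 0.05 there were 4 higher and 1 lower, 0 higher and 3 lower, and 0 higher and 1 lower, beside 12.9%, 13.2% and 8.53% of all genes. In DIO-VSG relative to DIO-LFD 17 of 22 were lower, with a median of -0.14. Sdf2l1, a BiP cofactor, stood highest in DIO-HFD relative to CON-LFD (0.67, adjusted P = 0.37), and Fkbp2, a prolyl isomerase, lowest (-0.42, adjusted P = 0.24). Between DIO-VSG and DIO-HFD the ends were Ero1lb (0.91, adjusted P = 0.39), a thiol oxidase, and Fkbp11 (-0.40, adjusted P = 0.50). Relative to DIO-LFD they were Ero1lb (0.85) and Pdia6 (-0.39), a disulfide isomerase, and between DIO-LFD and DIO-HFD they were Fkbp2 (0.22) and Fkbp11 (-0.19).

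Sensors and their processing enzymes gave 7 of 11 higher in DIO-HFD than in CON-LFD (median 0.13), 3 of them at an unadjusted P below 0.05 (12.9% of all genes) and 0 called by limma. Eif2ak3, which encodes PERK, was at 1921 ± 480 in CON-LFD, 2436 ± 396 in DIO-HFD, 2122 ± 115 in DIO-LFD and 2426 ± 165 in DIO-VSG (SD, n = 4). It was thus higher by 0.36 in both DIO-HFD (adjusted P = 0.33) and, at 0.37, DIO-VSG (adjusted P = 0.27) than in the controls. After sleeve gastrectomy 8 of 11 were lower than in DIO-HFD (median -0.20), with Creb3l1, an ATF6-like factor linked to collagen secretion, at -1.25 (adjusted P = 0.37) and Rtcb, the ligase that joins spliced Xbp1, at 0.08. Creb3l1 was at the top when DIO-HFD was set against CON-LFD (0.52) and DIO-LFD against DIO-HFD (0.34), and at the bottom in DIO-VSG relative to DIO-LFD (-1.59). In the remaining positions stood Tmbim6 (-0.14) and Eif2ak3 (-0.19 and 0.19). Fibroblast scores ran from -1.42 to 0.17 in DIO-VSG and from -0.16 to 0.66 in DIO-HFD, and their part in these values was not tested.

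Genes of ER-associated degradation and translocation were higher in 17 of 26 cases in DIO-HFD relative to CON-LFD (median 0.07) and lower in 19 of 26 in DIO-VSG relative to DIO-HFD (median -0.05), beside medians of 0.02 and 0.02 over all genes, with 0 called. At an unadjusted P below 0.05 there were 2 higher and 0 lower in the first and 0 higher and 4 lower in the second, beside 12.9% and 13.2% of all genes. Sec24d, a coat protein of vesicles leaving the ER, was at 0.51 (adjusted P = 0.33) and at -0.75 (adjusted P = 0.26) in these comparisons, the extreme of the list in each. The opposite ends were Derl1 (-0.12) and Syvn1 (0.18). With dietary weight loss 14 of 26 were higher than in DIO-HFD (median 0.01, from -0.35 for Edem1 to 0.29 for Derl1), and in DIO-VSG relative to DIO-LFD 18 of 26 were lower (from -0.44 for Sec24d to 0.20 for Spcs3).

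Targets of the ATF4 arm outside the ER did not share a direction. Of 30 genes of the integrated stress response, 15 were higher and 15 lower in DIO-HFD relative to CON-LFD (median 0.00). The ends were Gdf15 (1.41, adjusted P = 0.40), a stress-induced hormone, and Gpt2 (-0.999, adjusted P = 0.22), an alanine aminotransferase. Gdf15 was low in count, with means of 21.1 in CON-LFD and 51.9 in DIO-HFD and 8 reads in its lowest control library. At an unadjusted P below 0.05 there were 2 higher and 4 lower, beside 12.9% of all genes. Medians were 0.05 in DIO-LFD and -0.01 in DIO-VSG against DIO-HFD, and -0.07 in DIO-VSG against DIO-LFD, with 0 called. In the same order the ends were Stc2 (0.90) and Gdf15 (-0.69), then Slc7a11 (1.94), the cystine transporter, and Psat1 (-0.64), then Slc7a11 (1.65) and Cebpb (-0.58). By these ends the list spread wider than the ER chaperones, although Gdf15 was low in count and Slc7a11 ran from 57.8 to 1403 within DIO-HFD.

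**Figure D3:**
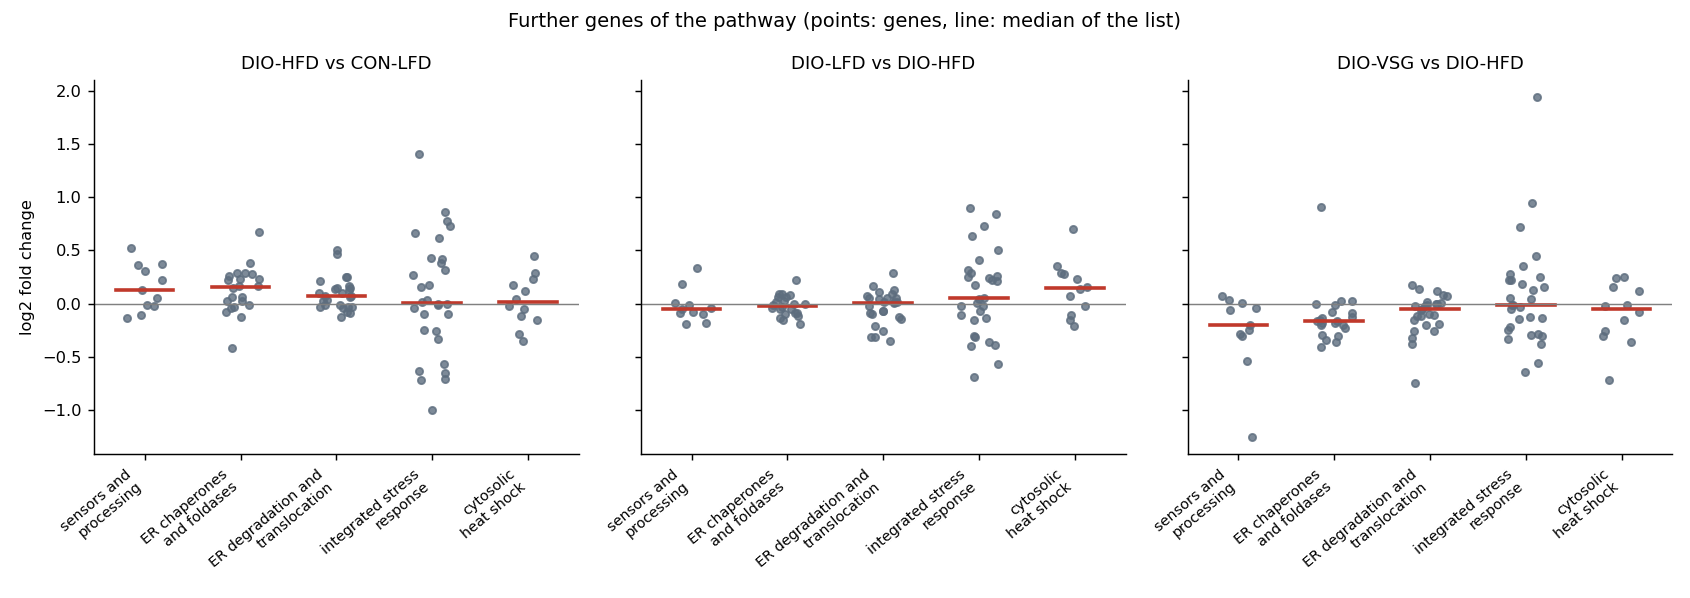
Log2 fold changes (vertical axis) of further genes of the pathway in 3 comparisons that share the DIO-HFD libraries, with a point for each gene and a line at the median of each list. The list labelled cytosolic heat shock also holds the mitochondrial Hspd1 and Hspe1. ER chaperones lie mostly above 0 in DIO-HFD relative to CON-LFD (16 of 22) and mostly below 0 in DIO-VSG relative to DIO-HFD (18 of 22), and the integrated stress response spreads widely around 0.

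Whether the members moved together was asked across the 16 libraries, by relating Hspa5 to each of the other 9. Hsp90b1 followed it most closely, with Pearson's r = 0.795 (permutation P = 0.00022, 0.00198 adjusted over the 9 relations) and Spearman's rho = 0.732 (P = 0.0018, adjusted 0.0162). This relation held without the libraries farthest from the median of Hspa5, DIO-LFD replicate 1 and DIO-HFD replicate 3 (r = 0.699, permutation P = 0.00495). Within groups r was 0.870, with no test. These permutations ignored the groups, so differences between groups enter the P-values here and for the members below. Among 21217 tested genes Hsp90b1 ranked 52 by its r with Hspa5.

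Atf6 (r = 0.669, rho = 0.618), Atf4 (r = 0.659, rho = 0.600), Trib3 (r = 0.643, rho = 0.441) and Xbp1 (r = 0.581, rho = 0.506) also ran with Hspa5, with permutation P values for r of 0.00473, 0.00528, 0.00735 and 0.0175 and adjusted values of 0.0158, 0.0158, 0.0165 and 0.0315. For rho the permutation P values were 0.0129, 0.0156, 0.0881 and 0.0477, and the adjusted values 0.0467, 0.0467, 0.159 and 0.107. Without DIO-LFD replicate 1 and DIO-HFD replicate 3, r was 0.411, 0.495, 0.387 and 0.526 with permutation P values of 0.144, 0.0735, 0.173 and 0.0532, so that none of the 4 passed 0.05 without them, although r of Xbp1 moved little. Within groups r was 0.649, 0.634, 0.545 and 0.583. Ddit3 (r = 0.355, rho = 0.212), Ern1 (0.209, 0.397), Dnajb9 (-0.149, -0.106) and Herpud1 (-0.383, -0.318) showed no relation to Hspa5 that passed the test, with adjusted permutation P values of at least 0.218 for r and 0.194 for rho. Without the same 2 libraries the r of Ern1 was 0.509 (permutation P = 0.0627). Within groups the r was 0.476 for Dnajb9, with the opposite sign, and -0.081 for Herpud1, 0.110 for Ddit3 and 0.081 for Ern1.

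The lists were described in the same way, by the r of their genes with Hspa5 over 16 libraries, where genes are not independent replicates. The median r was 0.545 for ER chaperones and foldases (12 of 22 genes above 0.5, 54.5%), 0.449 for degradation and translocation, 0.36 for sensors and 0.197 for the integrated stress response, beside -0.018 over all genes (9.64% above 0.5). Within groups the order differed, with medians of 0.427, 0.430, 0.485 and 0.259, beside -0.005 over all genes. Heat shock genes outside the ER, mostly cytosolic but including the mitochondrial Hspd1 and Hspe1, had the highest median of the 5 lists. It was 0.563 over all libraries and 0.600 within groups. The closest in the first list were Hyou1 (0.863), an ER chaperone of the HSP110 family, Pdia6 (0.724), Pdia4 (0.723) and Calr (0.699). Of the 21 tested ERSE genes other than Hspa5, 8 (38.1%) were above 0.5, with a median of 0.015. Within the 8 printed above, Pdia6, Calr, Creld2 (0.558), Canx (0.556) and Dnajc3 (0.546) were above 0.5, while Syvn1 (-0.058), Derl3 (-0.12) and Ero1lb (-0.304) were not.

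**Figure D4:**
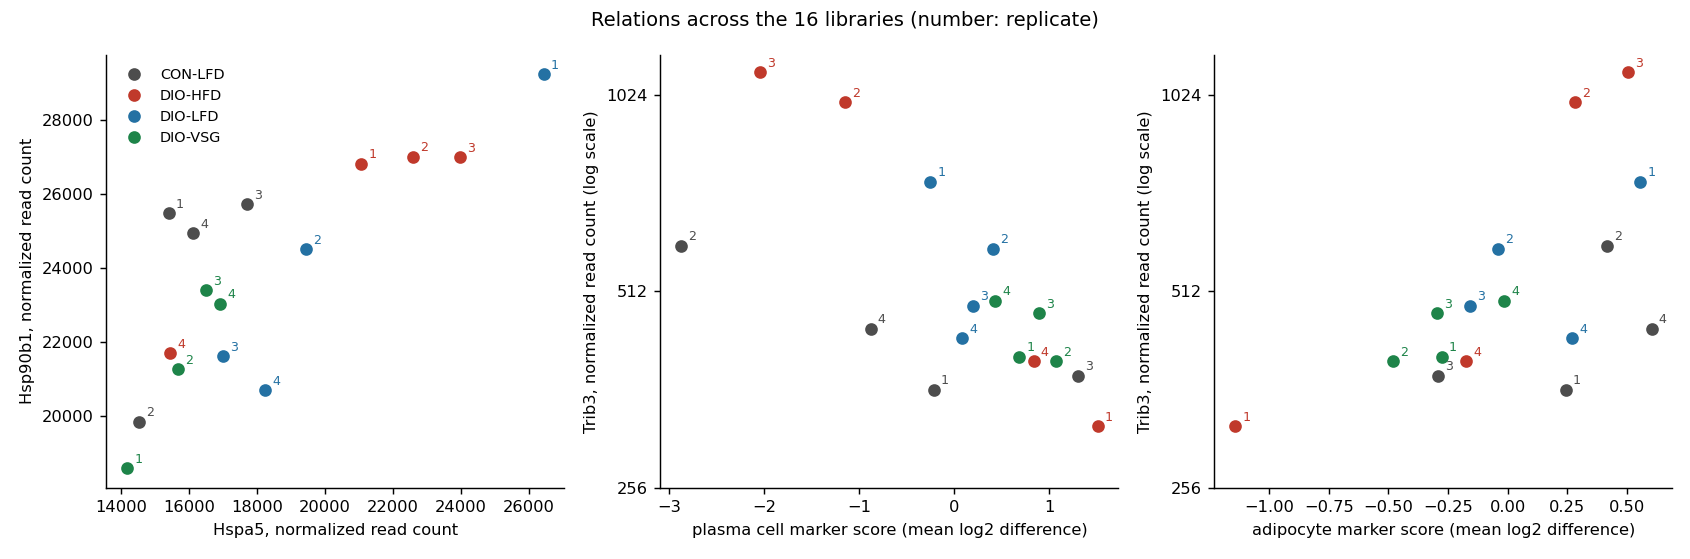
Across the 16 libraries, normalized read counts of Hsp90b1 against Hspa5 (left), and of Trib3 on a log axis against the plasma cell (middle) and adipocyte (right) marker scores, with a point for each library, colored by group and numbered by replicate. Hsp90b1 is higher where Hspa5 is higher (r = 0.795), and Trib3 is lower where plasma cell markers are higher (r = -0.693) and higher where adipocyte markers are higher (r = 0.626).

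By whole pattern over the 16 libraries, the tested genes most like Hspa5 were Tmem248 (r = 0.905), Ttc37 (0.903) and Hyou1 (0.863). Those most like Ddit3 were Synpo2 (0.841), Syp (0.835) and Tnrc18 (0.831), and those most like Xbp1 were Pim3 (0.903), Sctr (0.873) and E230013L22Rik (0.857). These are the highest of 21217 values each and carry no test.

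Marker scores of cells that the pad could hold were related to each member, in 30 relations with 3 scores. Over all 16 libraries Trib3 had the largest r with the plasma cell and adipocyte scores. It was lower where plasma cell markers were higher (r = -0.693, permutation P = 0.00434, and rho = -0.715, permutation P = 0.00281), with adjusted values of 0.104 and 0.0843 that missed the threshold. Without CON-LFD replicate 2 and DIO-HFD replicate 3 the r was -0.670 (permutation P = 0.00775), and within groups it was -0.822. The 4 lowest plasma cell scores belonged to the libraries of the low B cell cluster, and within the other 12 r was -0.586. With adipocyte markers r was 0.626 and rho 0.650 (permutation P = 0.00991 and 0.00797, adjusted 0.104 and 0.103), 0.678 without DIO-HFD replicate 1 and CON-LFD replicate 4 (permutation P = 0.00615), 0.798 within groups and 0.658 within the same 12 libraries.

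B cell scores fell into separate clusters, so relations with them are given only within the 12 libraries of the upper cluster. There r was 0.647 for Herpud1, the largest of the 10 members, and -0.543 for Trib3, with no test. Herpud1 in these 12 libraries also had an r of 0.810 with the plasma cell score and -0.679 with the adipocyte score, against 0.220 and -0.188 over all 16. Summed plasma cell markers ran from 6930 to 27700 in CON-LFD, 7370 to 31600 in DIO-HFD, 9240 to 14600 in DIO-LFD and 13900 to 21800 in DIO-VSG, with Fcrl5 at or below 3 reads in a CON-LFD library and no other of the 10 markers so low. Adipocyte sums ran from 858000 to 1580000 in CON-LFD, 476000 to 1700000 in DIO-HFD, 918000 to 1630000 in DIO-LFD and 799000 to 1070000 in DIO-VSG. The part of these cells in the level of Trib3 was not tested. For Hspa5 no relation was detected with the plasma cell score (r = -0.149, rho = -0.132, permutation P = 0.588 and 0.626) or the adipocyte score (r = 0.196, rho = 0.232, permutation P = 0.469 and 0.386), with adjusted values from 0.693 to 0.732. Without DIO-HFD replicate 1 and CON-LFD replicate 4 its r with the adipocyte score was 0.602 (permutation P = 0.0226).

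All members are protein-coding genes in the GENCODE annotation of GRCm38. The chaperone Hspa5 spans chr2:34771970-34777547 with 8 merged exons and Hsp90b1 chr10:86690209-86705509 with 18, the latter overlapping Gm15344 and Gm25745 on its strand and 1810014B01Rik on the other. Xbp1 lies at chr11:5520659-5525893, Ddit3 at chr10:127290774-127296288, Dnajb9 at chr12:44205559-44210326, Trib3 at chr2:152337422-152344032 and Herpud1 at chr8:94386438-94395377, which also overlaps Gm15890 on the other strand. Atf4 (chr15:80255184-80257541), Atf6 (chr1:170704674-170867771) and Ern1 (chr11:106394650-106487852) complete the set. Values are totals over isoforms, and the spliced and unspliced forms of Xbp1 were counted together.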

How the data were processed

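Total RNA was prepared with the TruSeq Stranded Total RNA kit and sequenced on an Illumina HiSeq instrument. The study's methods name STAR and salmon with GRCm38.p4 and a Gencode annotation, whereas the submitters' processing notes name TopHat2 2.0.7, HTSeq 0.5.3p9, DESeq2 and mm10, and which made the table is not settled. The deposited values are log2 values, made by the authors with DESeq2's variance-stabilizing transformation and sharing a lowest value of 5.36. They were inverted to normalized counts, and with 1 size factor per library (0.904 to 1.22) 100% of values gave whole reads within 0.01. Log2(normalized count + 1) was fitted with limma 3.58.1 (R 4.3.3), with a trended prior, in 1 model of the 16 libraries and 4 groups, over the 21218 genes that reached 10 normalized counts in 4 or more libraries. P-values were adjusted by Benjamini and Hochberg and called below 0.05. The design had been written for normalized values and was kept after the inversion.

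The members and all lists were chosen with earlier results of these data known. All 10 members are named, and from each list the genes called or, failing any, the highest and the lowest in each comparison, with the 3 genes most like Hspa5, Ddit3 and Xbp1. Other list genes were named after their values were seen (Eif2ak3, those printed for their promoter letters and those closest to Hspa5). A marker score is the mean over markers of log2 values centered on all libraries. Correlations across libraries used 100000 permutations, and group differences of single genes all 70 arrangements, two-sided. The permutations for correlations ignored the groups, so differences between groups enter those P-values, and r within groups carries no test. The exact tests of group differences were run on members only and were not adjusted. P-values measure the spread between these samples. Motifs were searched in RefSeq promoters of GRCm38.p6 with Python 3.11.15. The code was tested on simulated data. Alternatives changed the pseudocount, filter, scaling, weights, covariates, block, libraries in the fit and tool (limma-voom). All columns could be assigned to samples.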

Additional observations from a re-analysis of the deposited data

Results flagged for a closer look

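In 40 checks, 10 members in 4 groups of 4 libraries, 3 libraries stood apart from the rest of their group by a gap that, as a share of the group's range, passed Dixon's 95% critical value. Chance alone gives about 1 in 20. Ddit3 in DIO-VSG replicate 2 was low at 673.7 normalized read counts, and without this library its log2 change from DIO-HFD was -0.15 in place of -0.22. Hsp90b1 was low in CON-LFD replicate 2, at 19838, and in DIO-HFD replicate 4, at 21698. Its change in DIO-HFD relative to CON-LFD, 0.10, was 0.0079 without the former and 0.18 without the latter. The first of these is a library of the low B cell cluster, with a score of -5.77, and the second had the highest keratinocyte score, 3.70. The part of these cells in the values was not tested.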

How the results depend on the processing

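The 40 member changes in 4 comparisons were refitted under 14 alternatives and without each of 16 libraries, 1200 values in all. Of these 1130 kept their direction and call, 69 turned direction, 34 of them with a library left out, and 1 was called. Many of the 1200 could not turn, so these counts overstate stability. Leaving out a library of a group that a comparison does not use leaves its changes as they were. So do the replicate block and the fit of only the 2 groups compared, and the 12 libraries hold all of DIO-LFD and DIO-VSG. As no member was called in the main fit, a kept call shows little. None of the turned values was called, and the cause was not tested.

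The count of all genes called for DIO-HFD against CON-LFD, 8, was 3 with a filter of 100 normalized counts, 3 with quantile normalization, 19 with scaling to total reads, 4196 with library weights, 0 with limma-voom, 17 and 49 with the B cell and adipocyte scores as covariates, 0 with only the 2 groups compared, 1 in the 12 libraries, and 0 to 136 with a library left out, the highest without CON-LFD replicate 3. For DIO-LFD against DIO-HFD it was 1811 with library weights, 4 with the adipocyte score, and 0 to 1 with a library left out. DIO-VSG against DIO-HFD gave 1 with scaling to total reads, 3739 with library weights, 79 with the adipocyte score, and 0 to 1 with a library left out. For DIO-VSG against DIO-LFD it was 184 with library weights, 1533 with only the 2 groups compared and 4 in the 12 libraries.

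The members' median for DIO-HFD against CON-LFD was 0.22 with scaling to total reads, where all genes shifted to 0.16 and the share of higher genes among those at an unadjusted P below 0.05 to 76.5% from 40.5%. That share moved to 40.4% from 63% for DIO-LFD and to 22% from 38.3% for DIO-VSG against DIO-HFD. With library weights the median was 0.11 for DIO-LFD and 0.033 for DIO-VSG against DIO-HFD, where 1 of 10 members, Dnajb9, was called beside 3739 of 21218 genes.

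Library weights also turned Atf4 (-0.072) and Hsp90b1 (-0.15) in DIO-HFD against CON-LFD, Atf6 (0.035), Atf4 (0.18), Hspa5 (0.22), Hsp90b1 (0.028) and Trib3 (0.29) in DIO-LFD against DIO-HFD, Atf4 (0.21), Xbp1 (0.035) and Trib3 (0.10) in DIO-VSG against DIO-HFD, and Atf4 (0.032) in DIO-VSG against DIO-LFD. In the same order of comparisons, the B cell score turned Ern1 (-0.012), Trib3 (0.11), Ern1 (-0.031) and Atf4 (0.017). The adipocyte score turned Ern1 (-0.067), then Dnajb9 (-0.011) and Herpud1 (0.047), and in the last comparison Atf4 (0.042) and Trib3 (0.062). Scaling to total reads turned Dnajb9 (-0.058) in DIO-LFD against DIO-HFD and Atf4 (0.034) in DIO-VSG against DIO-LFD. In the 12 libraries, an alternative chosen after seeing the data, the first comparison turned for Atf6 (-0.034), Ern1 (-0.025), Atf4 (-0.023), Hsp90b1 (-0.086), Herpud1 (0.068) and Trib3 (-0.056), the second for Atf6 (0.060), Atf4 (0.14), Hspa5 (0.15) and Trib3 (0.64), and the third for Atf4 (0.12), Herpud1 (-0.055) and Trib3 (0.31).

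With a library left out, DIO-HFD against CON-LFD ranged from -0.011 to 0.11 for Atf6, -0.052 to 0.20 for Ern1 and -0.094 to 0.13 for Xbp1. DIO-LFD against DIO-HFD ranged from -0.091 to 0.044 for Atf6, -0.17 to 0.020 for Atf4, -0.17 to 0.042 for Hspa5, -0.057 to 0.076 for Dnajb9, -0.11 to 0.092 for Herpud1 and -0.46 to 0.14 for Trib3. DIO-VSG against DIO-HFD ranged from -0.084 to 0.22 for Ern1, -0.19 to 0.0032 for Atf4 and -0.14 to 0.055 for Xbp1, and DIO-VSG against DIO-LFD from -0.056 to 0.034 for Atf4 and -0.025 to 0.069 for Ddit3.

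Same-numbered libraries of different groups shared only a number. Their deviations correlated from -0.609 to 0.534 over 24 pairs, against -0.628 to 0.742 for other numbers. With the replicate block 1 gene was called for DIO-HFD against CON-LFD in place of 8, and no member's call changed. Depth did not limit these genes, since the lowest value was 328 reads. The limits are 4 libraries per group, lymphoid tissue that differs between libraries, and gene-level values that do not show splicing or protein.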

Other observations

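Heat shock genes that answer misfolded protein outside the ER were measured in the same libraries. Most are cytosolic, while Hspd1 and Hspe1 encode mitochondrial chaperonins. Of 12 genes, 6 were higher and 6 lower in DIO-HFD relative to CON-LFD (median log2 change 0.01), from -0.35 for Hspd1 to 0.45 for Hsph1. In DIO-LFD against DIO-HFD 8 were higher (median 0.15, from -0.21 for Hspa8 to 0.70 for Hspa1b). In DIO-VSG 8 were lower than in DIO-HFD (median -0.05, from -0.72 for Hspb1 to 0.25 for Hspe1) and 10 lower than in DIO-LFD (median -0.15, from -1.003 for Hspb1 to 0.02 for Hspe1). None was called by limma, and at an unadjusted P below 0.05 there were 0, 0, 0 and 1, beside 12.9%, 8.53%, 13.2% and 9.71% of all genes. Their median r with Hspa5 over the 16 libraries was 0.563, with Hspa8 at 0.735, close to the 0.545 of the ER chaperones.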
